A study of Homo sapiens with 24 samples.

Results

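The genome-wide response of H1975 cells to almonertinib was read from 6 RNA-seq libraries out of the 24 of the series. They are the 3 libraries of cells given 1 nM almonertinib for 24 h and the 3 libraries of control cells kept for the same 24 h, chosen by their labels and not by any measured value. H1975 is an established human lung adenocarcinoma line that carries an activating mutation of EGFR together with the gatekeeper mutation that blocks earlier EGFR inhibitors. Almonertinib is a covalent inhibitor of mutant EGFR kinase. No drug is named for the control cells, and no genetic change to the line is described. The study also treated H1975 cells with paclitaxel and with both drugs, and treated PC9 cells, another EGFR-mutant lung adenocarcinoma line, in the same 4 ways with 2 nM as the almonertinib dose. The labels call the libraries repeats without saying that they came from separate cultures, so every p-value below measures the spread between libraries, which may be technical. All findings come from 1 cell line at 1 dose and 1 time.

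EGFR is a receptor tyrosine kinase. Ligands such as amphiregulin activate it, and it signals through RAS and the MAPK cascade to early-response transcription factors, and through PI3K and AKT to growth and survival. MAPK output switches on its own brakes, the DUSP phosphatases and the SPRY and SPRED proteins, so the mRNA levels of these genes serve as a readout of the pathway. AKT keeps FOXO transcription factors out of the nucleus, and MAPK activity lowers the pro-apoptotic protein BIM. Interferons act through JAK kinases and STAT factors on a separate set of antiviral and antigen-presentation genes.

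The 6 libraries held 16713059 to 24245314 counted reads, with 13780 to 14067 genes detected in each. Expression levels below are CPM, that is, counts relative to the scaled library size. Each log2 fold change is almonertinib minus control ± an approximate standard error. That error is the absolute log2 fold change divided by the square root of the F statistic of the test, and is rough for genes with few reads. Lung carcinoma markers were expressed: 10 of 10 passed the low-count filter. Their summed level was 10582 to 17206 CPM in the almonertinib libraries and 12701 to 16081 CPM in the controls. These markers do not tell H1975 from other carcinoma lines. Leukocyte markers summed to 38.2 to 52.9 CPM with almonertinib and 45.9 to 52.3 CPM in the controls, mostly from CSF1R, and fibroblast markers to 9.57 to 15.9 and 8.70 to 10.4 CPM. Endothelial markers summed to 5.17 to 6.37 CPM with almonertinib and 8.39 to 10.2 CPM in the controls, and ESAM among them fell (-1.12 ± 0.23, adjusted p = 0.0165), a call lost without almonertinib library 3 or control 1. PTPRC, COL1A2, COL3A1, DCN and CLDN5 were at 0 in all 6, and a part of such cells in the results was not tested. A set of 60 genes was chosen for a mean over 50 CPM in the PC9 controls and under 0.5 CPM in the H1975 controls. They made up 0.00114% to 0.00141% of the counts in the almonertinib libraries. Their shares in the H1975 controls (0.000700% to 0.000829%) and the PC9 controls (0.882% to 1.06%) follow from that choice.

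Almonertinib library 1 stood apart from the other two almonertinib libraries. Genes with AT-rich transcripts were low in it and genes with GC-rich transcripts were high. In the fifth of genes with the lowest GC content its median difference from the control mean was -0.63 on the log2 scale, where libraries 2 and 3 were at 0.27 and 0.35. In the fifth with the highest GC content the medians were 0.37, -0.20 and -0.08. Spearman's rho between a gene's GC content and its deviation from the mean of the 12 H1975 libraries was 0.79 in almonertinib library 1, -0.63 in library 2, -0.47 in library 3, and 0.31, 0.41 and -0.64 in controls 1, 2 and 3 (12324 genes, given as a description). Control 3 thus had the same sign as almonertinib libraries 2 and 3. Each result is given with all 6 libraries. Counts of called list members are given again without almonertinib library 1, and after each library's dependence on GC content and transcript length was taken out, wherever these fits changed them. List counts are to be read beside the shares of all genes called in the same fit. With all libraries 1.35% rose and 0.599% fell. Without almonertinib library 1 the shares were 3.38% and 3.91%, and with the trend removed 4.14% and 3.35%.

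**Figure D1:**
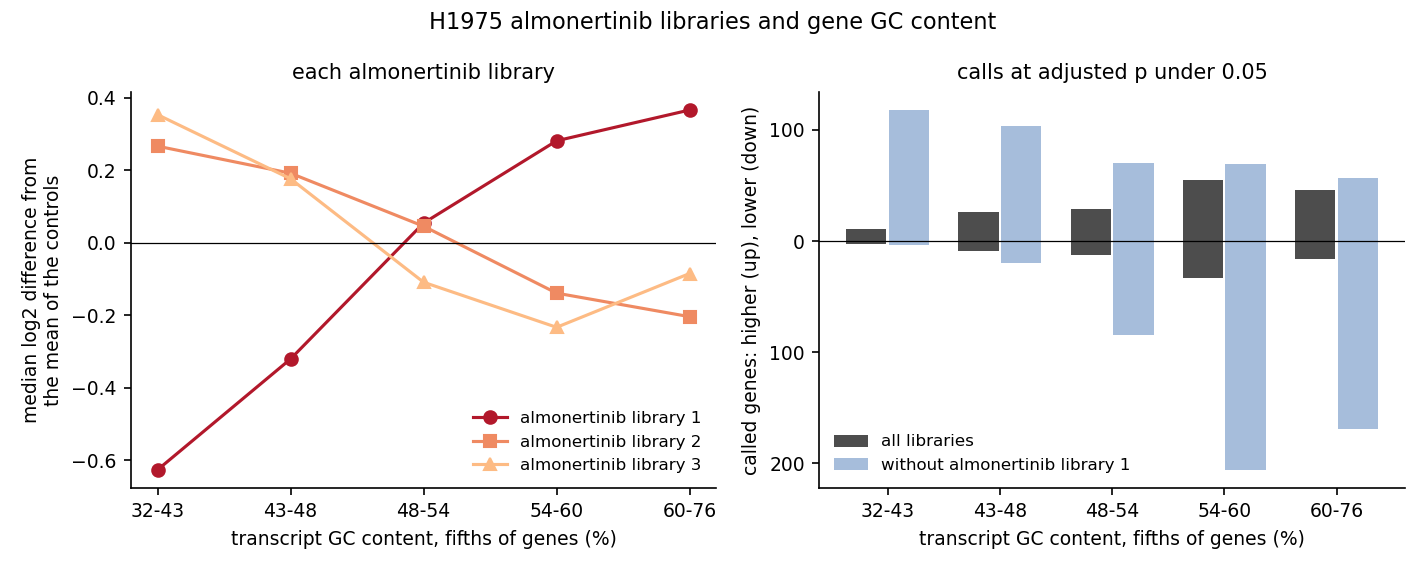
GC content of the transcripts and the almonertinib libraries. The left panel plots, for 5 equal groups of genes ordered by GC content (x axis, percent), the median log2 difference of each almonertinib library from the control mean. Library 1 rises from -0.63 to 0.37, and the other two are lower at the highest GC content than at the lowest. The right panel counts genes called higher (above 0) or lower (below 0) with all libraries and without almonertinib library 1. Without it, 118 genes rose and 4 fell in the group with the lowest GC content, and 69 rose and 206 fell in the fourth group.

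Of 12345 genes tested with edgeR's quasi-likelihood test over the 12 H1975 libraries, 241 (1.95%) passed a Benjamini-Hochberg adjusted p under 0.05. They divide into 167 that rose (1.35%) and 74 that fell (0.599%). At least a 2-fold change was reached by 123 of the genes that rose and 31 of those that fell. An unadjusted p under 0.05 was reached by 1283 genes. The median log2 fold change over all genes was 0.02. The same test without almonertinib library 1 called 906 of 12441 genes (7.28%), 420 higher (3.38%) and 486 lower (3.91%). The calls then varied with GC content: in the fifth of genes with the lowest GC content 118 rose and 4 fell, and in the next to highest 69 rose and 206 fell. With the length and GC trend removed and all libraries kept, 925 genes (7.49%) were called, 511 higher (4.14%) and 414 lower (3.35%). Of the 241 genes, 240 were called in the same direction without almonertinib library 1, 166 higher and 74 lower. After removal of the trend 239 were called in the same direction, 167 higher and 72 lower, and no gene was called in the opposite direction in either fit. Leaving out one of the other libraries removed more of these calls. In 6 fits that each left out 1 of the 6 libraries, 83 of the 241 genes were called every time, 69 of the 167 that rose and 14 of the 74 that fell. The number of calls was 99 without control 2, 115 without control 1, 135 without almonertinib library 3 and 169 without almonertinib library 2. These fits, like the main one, also drew their estimate of the spread from the paclitaxel and combination libraries. A fit of only the 6 libraries compared called 46 genes, 41 higher and 5 lower.

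**Figure D2:**
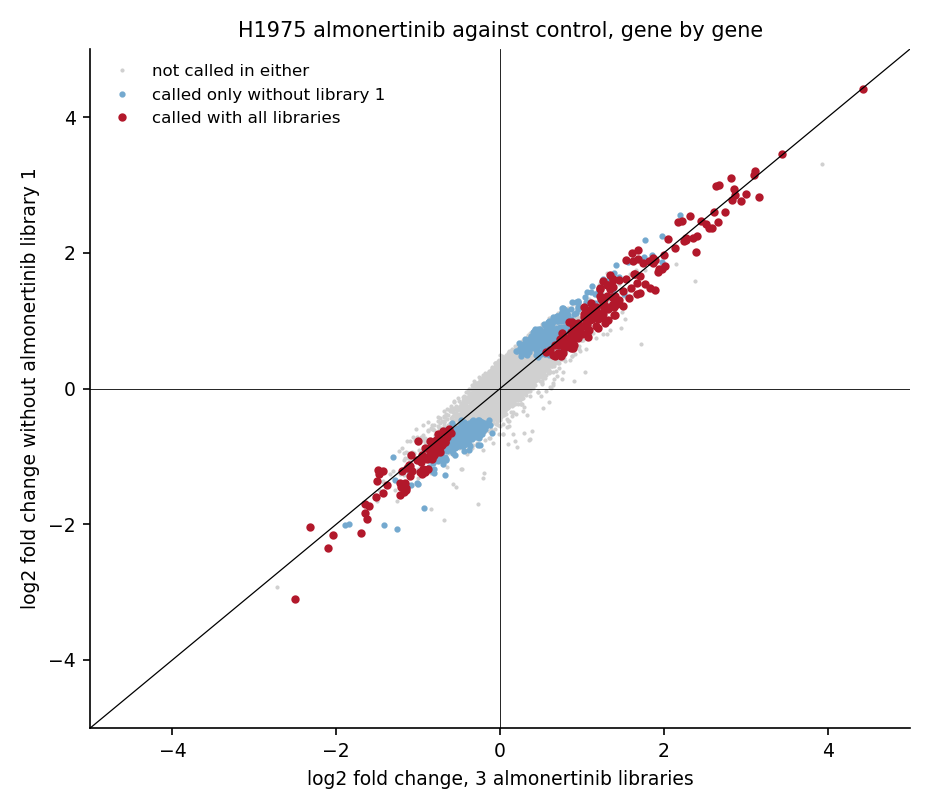
Log2 fold change of 12345 genes with all 3 almonertinib libraries (x axis) and without almonertinib library 1 (y axis). Each point is a gene, and the diagonal marks equal values. Genes called with all libraries are red, those called only without library 1 are blue, and no gene is called in opposite directions.

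Interferon-stimulated genes are the antiviral programme that cells switch on when interferon or foreign nucleic acid is sensed, and 32 of the 167 genes that rose were members of this list. Of 45 members tested from a list of 47, 32 rose and 0 fell, where 1.35% of all tested genes rose. The median log2 fold change of the 45 was 1.38, beside 0.02 over all genes, and 44 of 45 had a positive value. In 31 of the 45 all almonertinib libraries were above all controls, a pattern found in 7.10% of tested genes. The rise was seen in each almonertinib library, since the list's median was 1.17, 1.49 and 1.74 above the control mean in libraries 1, 2 and 3, while the controls lay at -0.08, -0.16 and 0.22. When almonertinib library 1 was left out 39 of the 45 rose, and with the length and GC trend removed 41 rose. With any other single library left out at least 23 rose, the fewest without control 2. In these bulk libraries fewer cells of a kind and less RNA per cell cannot be told apart.

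The effector proteins of this programme showed the largest changes. MX1, a dynamin-like GTPase that traps viral nucleocapsids, was at 161, 135 and 112 CPM in almonertinib libraries 1, 2 and 3 and at 15.5, 21.1 and 24.3 CPM in controls 1, 2 and 3. Every almonertinib library was several-fold above every control, and the log2 fold change was 2.74 ± 0.24 (edgeR adjusted p = 1.33e-05). Its neighbour MX2, which lies beside it on chromosome 21 (chr21:41361943-41409390, with MX1 at chr21:41420304-41459214; GRCh38, GENCODE v29), went from 2.41, 2.74 and 4.40 to 24.9, 27.4 and 29.2 CPM, a log2 fold change of 3.09 ± 0.25 (adjusted p = 5.61e-06). The 3 oligoadenylate synthetases OAS1, OAS3 and OAS2, which sense double-stranded RNA and lie in a row on chromosome 12 between 112906777 and 113011723, rose by 2.14 ± 0.16, 1.27 ± 0.21 and 2.86 ± 0.26 (adjusted p = 4.41e-06, 0.00358 and 1.40e-05). OAS1 stood at 113, 105 and 95.5 CPM with almonertinib and 22.1, 23.0 and 26.3 CPM in the controls, so neither group spread by more than a small part of the gap between them.

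IFI6, a small membrane protein that limits virus replication and cell death, reached 539.6, 436 and 632 CPM against 91.2, 72.1 and 100.3 CPM (2.61 ± 0.20, adjusted p = 4.41e-06). IFI27, another member of that family, was at 1150.1, 657 and 1129 CPM against 124, 101 and 141 CPM (3.0 ± 0.24, adjusted p = 5.61e-06). Almonertinib library 2 was the lowest of its group for both genes and still lay above the highest control. IFI44L rose by 2.82 ± 0.37 and XAF1, a pro-apoptotic antagonist of XIAP, by 2.68 ± 0.35 (adjusted p = 4.95e-04 and 5.85e-04). XAF1 is one of the genes in which library 1 fell short of the rest, at 9.22, 24.1 and 24.1 CPM in libraries 1 to 3 against 2.08, 2.51 and 4.40 CPM in the controls. IFIT1, which binds viral RNA caps, behaved alike with 30.1, 54.9 and 62.9 CPM against 7.72, 9.08 and 15.1 CPM (2.22 ± 0.29, adjusted p = 4.81e-04). IFITM1, a membrane protein that blocks virus entry, rose by 1.37 ± 0.15 and BST2, the tetherin that holds budding virus at the cell surface, by 1.71 ± 0.18 (adjusted p = 1.27e-04 and 5.60e-05). ISG15, a ubiquitin-like modifier, was at 1452, 998 and 1597 CPM against 657, 557 and 456 CPM (1.28 ± 0.23, adjusted p = 0.0083), and its call was lost without control 2 (adjusted p = 0.0506).

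Among the transcription factors of the programme, IRF7, which drives interferon genes, rose by 1.77 ± 0.17 (adjusted p = 3.59e-05), from 36.1, 30.9 and 31.7 CPM in the controls to 146, 90.3 and 102 CPM. STAT2 had a log2 fold change of 0.84 and IRF9 of 0.41, neither of them called (adjusted p = 0.0751 and 0.841). IRF1 was at 0.56 (adjusted p = 0.212). IFNL1, an interferon of epithelial cells, had 33 reads in the 3 almonertinib libraries and 14 in the controls and was not called (adjusted p = 0.438). IFITM2 stood at -0.20 and was not called (adjusted p = 0.836).

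The promoters of these genes were compared with those of all tested genes. RefSeq (GRCh38.p14) gave a promoter, 250 bases before to 50 after the start of transcription, for 10007 of the 12345 tested genes. The core of the interferon-stimulated response element, searched as GAAA, any 2 bases and GAAA again on both strands, was found in 2.74% of these promoters. It was in 22.3% of the promoters of genes that rose (27 of 121) and in 2.04% of those of genes that fell (1 of 49). Among the interferon-stimulated genes that rose it was in 54.2% (13 of 24), and among the other genes that rose in 14.4% (14 of 97). A match is a description of letters in this window and does not show that a factor binds there. The stretch from position -170 to -71 relative to the start of IFI6 (chr1:27672263-27672362, minus strand) is shown because it holds 3 copies, in capitals.
IFI6: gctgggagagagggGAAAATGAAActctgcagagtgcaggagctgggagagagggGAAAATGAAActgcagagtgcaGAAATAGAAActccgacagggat

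Single matches with 12 bases on either side are shown for genes of different function, in the direction of the gene, so that a match on the opposite strand reads as TTTC, any 2 bases and TTTC. ISG15, BST2 and IFIT1 are interferon effectors (chr1:1013378-1013411 on the plus strand, chr19:17405739-17405772 on the minus strand and chr10:89392508-89392541 on the plus strand). TAP1 is the peptide transporter of antigen presentation (chr6:32853811-32853844, minus strand), and GBP1 a guanylate-binding protein (chr1:89065314-89065347, minus strand). CFB, a complement factor outside the interferon list, also holds a match (chr6:31945943-31945976, plus strand). ISG15, BST2, IFIT1 and TAP1 each hold another match within the bases shown or next to them. Capitals mark the match.
ISG15: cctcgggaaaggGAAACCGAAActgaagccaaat
BST2: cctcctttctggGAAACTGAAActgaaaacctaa
IFIT1: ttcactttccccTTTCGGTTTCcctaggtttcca
TAP1: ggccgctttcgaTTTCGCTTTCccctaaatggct
GBP1: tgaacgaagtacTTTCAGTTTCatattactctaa
CFB: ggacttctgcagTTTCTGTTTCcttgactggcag

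Part of the antigen-presentation genes rose. Of 23 members tested, 11 rose and 0 fell, beside 1.35% and 0.599% of all tested genes, and the median log2 fold change was 0.67. Its libraries were at 0.84, 0.60 and 0.70 above the control mean, so library 1 was the highest here. Without almonertinib library 1, 14 rose, with the length and GC trend removed 17 rose, and without control 2 the number was 5. The class II branch, which presents peptides from endosomes and is best known from immune cells, moved most. CD74, the invariant chain that guides class II molecules, was at 18.1, 7.55 and 12.3 CPM against 1.39, 1.48 and 1.32 CPM, a log2 fold change of 3.16 ± 0.30 (adjusted p = 2.47e-05). It had the largest rise of all genes with at least 5 CPM on average and no overlap between the groups. CIITA, the transactivator that switches class II genes on, rose by 1.70 ± 0.25 (adjusted p = 0.00121), from 6.24, 6.34 and 6.40 CPM to 28.7, 17.9 and 15.6 CPM. HLA-DMA, a chaperone of peptide loading, rose by 1.23 ± 0.20 (adjusted p = 0.0029). HLA-DRA and HLA-DPA1, chains of the peptide-presenting molecules, remained rare: 81 and 52 reads in the 3 almonertinib libraries against 7 and 2 in the controls. Both were called (adjusted p = 3.84e-04 and 0.00303), with log2 fold changes of 3.44 ± 0.43 and 4.43 ± 0.71 that rest on those few control reads.

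In the class I branch the immunoproteasome subunits PSMB9 and PSMB10 rose by 0.91 ± 0.18 and 0.87 ± 0.20 (adjusted p = 0.0112 and 0.0297), and the peptide transporter TAP1 by 0.67 ± 0.16 (adjusted p = 0.0389). PSMB9 and TAP1 overlap on chromosome 6, and reads from the overlap cannot be told apart where the counted strand is not stated. HLA-B was at 279, 255 and 268 CPM against 165, 155 and 146 CPM (0.78 ± 0.15, adjusted p = 0.0112). HLA-F rose by 0.95 ± 0.19 (adjusted p = 0.0147). B2M, the shared light chain, was not called (0.49 ± 0.19, adjusted p = 0.325). HLA genes are near-identical and highly variable, so their reads may be split between members. The calls of PSMB9, PSMB10, TAP1, HLA-B and HLA-F were each lost when control 2 was left out (adjusted p up to 0.147, for TAP1). HLA-F was called in 3 of the 6 fits that left out 1 library, PSMB10 in 2 and TAP1 in 1, the one without almonertinib library 1.

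**Figure D3:**
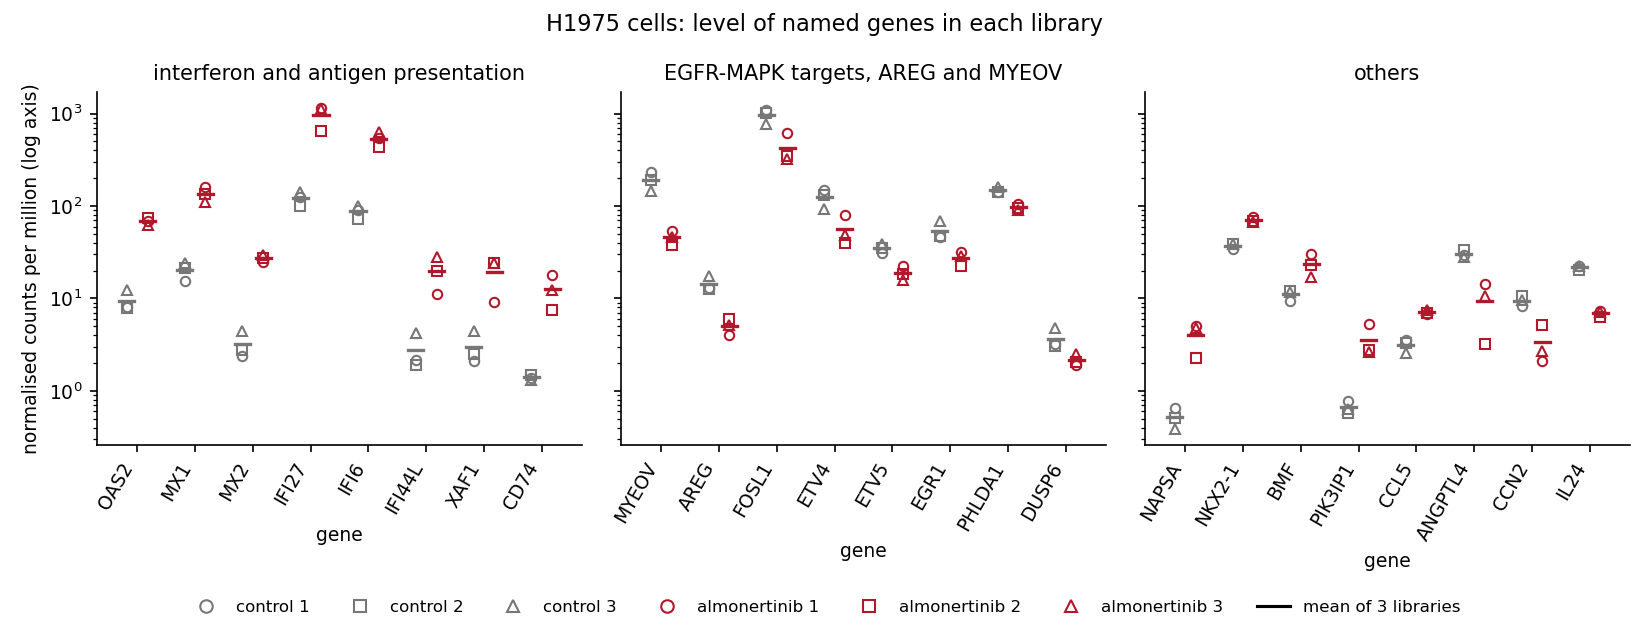
Level of 24 named genes in each library, in CPM on a log axis. Grey marks are the 3 controls, red marks the 3 almonertinib libraries (circle 1, square 2, triangle 3), and the bars are group means. The interferon and antigen-presentation genes on the left lie higher with almonertinib, the EGFR-MAPK genes in the middle lower, and library 1 is the lowest almonertinib library for IFI44L and XAF1 and the highest for CD74.

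A part of the targets of EGFR and MAPK signalling fell with almonertinib. Of 39 EGFR and MAPK targets tested, 13 fell and 0 rose, where 0.599% of all tested genes fell and 1.35% rose. The median log2 fold change was -0.50, and 35 of 39 values were negative. In 24 of 39 all almonertinib libraries lay below all controls, beside 4.88% of all tested genes. The median of the list was -0.47, -0.52 and -0.58 in almonertinib libraries 1, 2 and 3, so library 1 was close to the other two here. Without almonertinib library 1, 20 fell (3.91% of all genes), and with the length and GC trend removed 21 fell and 2 rose (3.35% and 4.14%). The count depended on the other libraries: 1 member remained called without almonertinib library 2. That member, DUSP4, was called in each of the 6 fits, and lost its call in 1 of 18 fits with other settings or libraries.

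DUSP4, a nuclear phosphatase that switches MAPK off, was at 32.2, 26.8 and 27.7 CPM with almonertinib and 58.4, 57.1 and 49.7 CPM in the controls (-0.93 ± 0.14, adjusted p = 0.00143). The highest almonertinib library was below the lowest control. DUSP5, the nuclear ERK phosphatase, fell to 74.9, 49.0 and 39.0 CPM from 109.9, 109.8 and 95.1 CPM (-0.95 ± 0.20, adjusted p = 0.0206), with library 1 the highest of its group. DUSP6, the cytoplasmic ERK phosphatase, was scarce, with 132 and 219 reads in the 2 groups. Its libraries did not overlap, at 1.89, 2.04 and 2.52 CPM against 3.19, 3.03 and 4.74 CPM, but it was not called (-0.76 ± 0.26, adjusted p = 0.222). SPRY4, a feedback inhibitor of receptor signalling, was likewise lower in every library (-0.77 ± 0.24) and not called (adjusted p = 0.151), though it was without almonertinib library 1 (adjusted p = 0.0166). SPRED3, a relative of SPRY4, changed by -1.13 ± 0.22 (adjusted p = 0.0125). The call of DUSP5 was lost in 4 of the 6 fits that left out 1 library (adjusted p up to 0.10) and that of SPRED3 in 3 (up to 0.0575).

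Among the transcription factors downstream of MAPK, FOSL1, an AP-1 subunit stabilised by ERK, was at 613, 350.4 and 322 CPM against 1094, 1021 and 779 CPM (-1.17 ± 0.22, adjusted p = 0.00977). Without almonertinib library 1 the difference was -1.52, and library 1 lay between the rest of its group and the controls. ETV4 and ETV5, ETS factors that carry MAPK signals to the nucleus, changed by -1.14 ± 0.23 and -0.89 ± 0.21 (adjusted p = 0.0141 and 0.0354). ETV4 levels were 81.0, 40.1 and 48.7 CPM with almonertinib and 148, 133 and 93.4 CPM without, again with library 1 closest to the controls. EGR1, an immediate-early factor, was at 32.1, 22.6 and 28.5 CPM against 46.3, 47.2 and 68.8 CPM (-0.97 ± 0.23, adjusted p = 0.0404). MYC was at 473, 385 and 371 CPM against 605, 744 and 609 CPM (-0.67 ± 0.16, adjusted p = 0.0404). PHLDA1, an early-response gene of growth factor signalling, changed by -0.60 ± 0.14 (adjusted p = 0.0377), and was not called once the length and GC trend was removed (-0.53, adjusted p = 0.152). LIF, a cytokine, PHLDA2 and the adaptor SH2B3 changed by -0.71, -0.95 and -0.67 (adjusted p = 0.0351, 0.0409 and 0.0476). Of these called genes FOSL1, ETV4, LIF and PHLDA2 each lost the call in 4 of the 6 fits that left out 1 library, and EGR1, ETV5, MYC, PHLDA1 and SH2B3 in 5. In each case the fit without almonertinib library 1 kept it.

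At the receptor level, EGFR itself was at 63.4, 112 and 93.7 CPM against 100.4, 108 and 147 CPM. The groups overlapped and EGFR was not called (-0.40 ± 0.20, adjusted p = 0.536). ERBB3, the kinase-impaired partner that couples to PI3K, was higher in every almonertinib library, 67.6, 88.1 and 77.0 CPM against 48.7, 53.8 and 65.9 CPM, but not called (0.47 ± 0.16, adjusted p = 0.202; 0.56 and 0.0348 without almonertinib library 1). Of the 14 tested ERBB receptors, ligands and brakes, 2 fell and 0 rose, beside 0.599% and 1.35% of all tested genes, and both are ligands. When almonertinib library 1 was left out 4 fell and 1 rose (3.91% and 3.38% of all genes), and with the length and GC trend removed 4 fell and 0 rose (3.35% and 4.14%). AREG, which encodes amphiregulin (chr4:74445134-74455009), was at 3.98, 6.0 and 5.13 CPM against 13, 12.5 and 17.5 CPM, a log2 fold change of -1.50 ± 0.22 (adjusted p = 0.00145), and was called whichever library was left out. The AREG call was lost in 1 of 18 fits with other settings or libraries. NRG1, the neuregulin that binds ERBB3, changed by -0.76 ± 0.18 (adjusted p = 0.044), a call lost in 5 of the 6 fits (adjusted p up to 0.186) and kept without almonertinib library 1. The ligands TGFA and EREG stood at -0.78 ± 0.22 and -0.81 ± 0.31 and were not called (adjusted p = 0.102 and 0.31). EREG had 102 reads with almonertinib and 171 in the controls. HBEGF was at 0.13 ± 0.21 (adjusted p = 0.939). Among 15 other receptor tyrosine kinases 0 were called, 4 had an unadjusted p under 0.05 (1 higher, 3 lower), and DESeq2 called 1, which was lower. The fit without almonertinib library 1 had 3 of 16 fallen (3.91% of all genes), and that with the trend removed 3 of 15 (3.35%). EPHA2, an ephrin receptor, is the gene DESeq2 called. It stood at -0.70 ± 0.19 (edgeR adjusted p = 0.076), and was called without almonertinib library 1 (-0.83, adjusted p = 0.0163) and with the trend removed (-0.70, adjusted p = 0.00463).

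MYEOV (chr11:69294138-69367726) had the largest fall among genes of at least 5 CPM. It was at 54.1, 38.3 and 46.3 CPM against 234, 189.9 and 145 CPM (-2.04 ± 0.21, adjusted p = 5.52e-05) and kept its call in each of the 6 fits. CCND1, the G1 cyclin that lies downstream on the same chromosome arm (chr11:69641087-69654474) and is itself a MAPK target, was at 140.0, 125 and 119 CPM against 193, 210.3 and 197 CPM (-0.65 ± 0.14, adjusted p = 0.0209). CCND1 was the only called gene among 21 G1 cyclins, CDKs and their inhibitors, and its call was lost without almonertinib library 2 or 3 or without control 1 or 2 (adjusted p up to 0.131). In the fits without almonertinib library 1 and with the trend removed 2 of the 21 rose and 2 fell. Of all genes 3.38% and 4.14% rose in these fits, and 3.91% and 3.35% fell. SH2D2A, an adaptor known from T cell signalling, and FAM83A, a signalling scaffold of EGFR and RAS, changed by -1.63 ± 0.27 and -0.77 ± 0.16 (adjusted p = 0.00325 and 0.0145), and FAM83A lost its call in 4 of the 6 fits. The AP-1 motif TGANTCA, which is its own reverse complement, was found in 12.2% (6 of 49) of the promoters of genes that fell, 5.79% of those that rose and 4.40% of all tested genes. SPRED3 holds it at position -60 from its start (chr19:38389719-38389749) and CPA4, a carboxypeptidase whose level changed by -0.91 ± 0.17 (adjusted p = 0.0103, lost without almonertinib library 3 or control 1), at position -48 (chr7:130293101-130293131), both on the plus strand and with the motif in capitals. They are shown as examples of a fallen feedback gene and a fallen gene outside the lists.
SPRED3: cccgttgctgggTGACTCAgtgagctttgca
CPA4: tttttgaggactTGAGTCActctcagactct

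**Figure D4:**
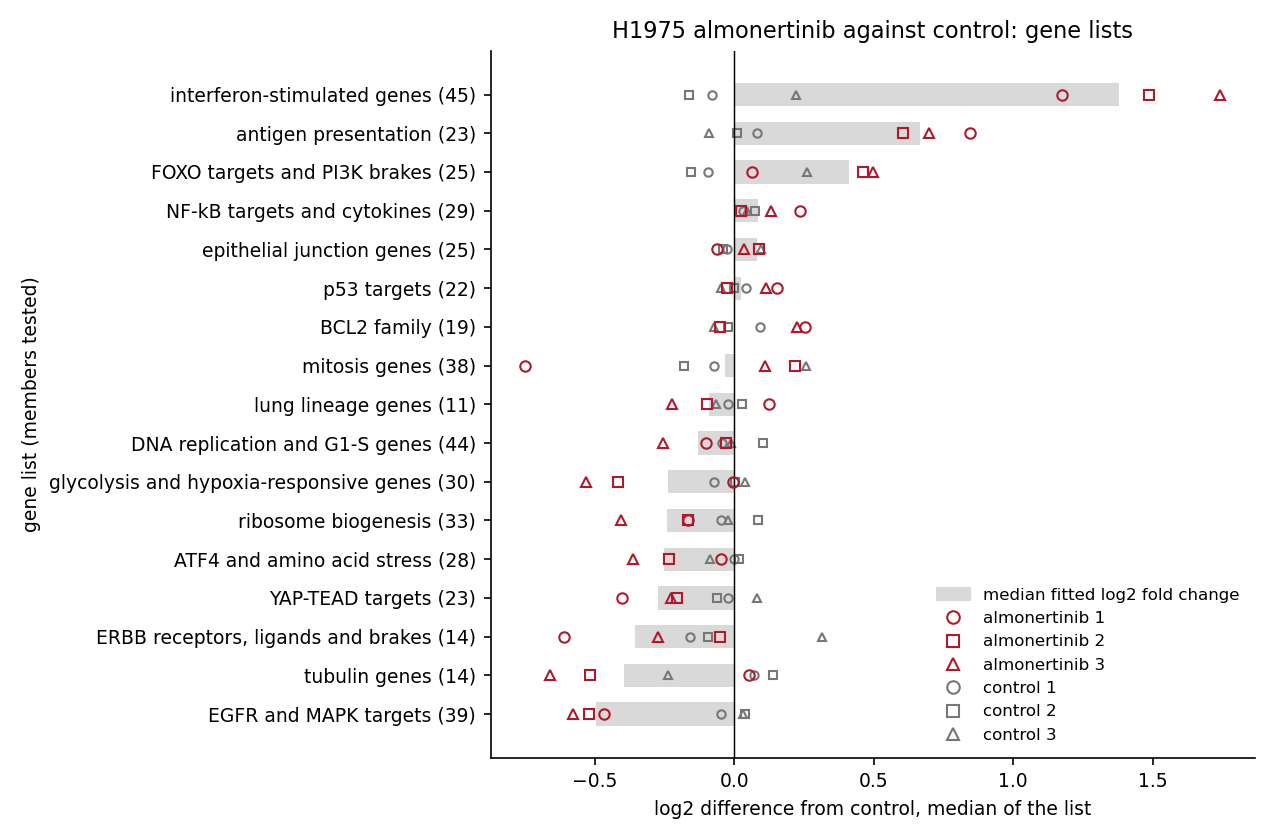
Median log2 difference from control for 17 gene lists, with the number of members tested in brackets. Bars are the median fitted log2 fold change, red marks the median of each almonertinib library against the control mean and grey marks that of each control. Interferon and EGFR-MAPK lists have all 3 almonertinib libraries on one side of the controls, and for mitosis genes library 1 is at -0.75 and the other two above 0.

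FOXO targets and PI3K brakes had a median of 0.41, with 2 of 25 risen and 0 fallen, beside 1.35% and 0.599% of all tested genes. PIK3IP1, which inhibits PI3K, was at 5.31, 2.80 and 2.65 CPM against 0.786, 0.571 and 0.635 CPM (2.39 ± 0.32, adjusted p = 7.18e-04). YPEL3, a growth-suppressive gene, rose by 1.07 ± 0.22 (adjusted p = 0.0176) and lost its call without control 2 (adjusted p = 0.128). TXNIP, a brake on glucose uptake, was at 212, 221 and 262 CPM against 91.5, 98.8 and 202 CPM and was not called (0.82 ± 0.28, adjusted p = 0.212), with control 3 close to the treated cells. With the length and GC trend removed 7 members of the list rose, where 4.14% of all genes did. With almonertinib library 1 left out 5 rose, where 3.38% of all genes did. The list's median was 0.06, 0.46 and 0.50 in almonertinib libraries 1, 2 and 3, and 0.26 in control 3, so the groups overlapped.

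Among 19 BCL2 family genes, the arbiters of mitochondrial apoptosis, 1 rose and 0 fell, beside 1.35% and 0.599% of all tested genes. In the fit without almonertinib library 1, 1 of 20 rose and 1 fell, where 3.38% and 3.91% of all genes did. With the length and GC trend removed 2 of 19 rose and 1 fell, where 4.14% and 3.35% did. BMF, a BH3-only activator of death, was at 30.4, 23.2 and 17.1 CPM against 9.44, 12.1 and 11.6 CPM (1.09 ± 0.22, adjusted p = 0.0145), a call lost without control 1 or control 2 (adjusted p up to 0.105). BCL2L11, which encodes BIM, was at 19.1, 20.7 and 18.5 CPM against 13.7, 14.2 and 15.3 CPM. Its groups did not overlap, but the difference was small and it was not called (0.43 ± 0.17, adjusted p = 0.301).

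Proliferation genes were not called with all libraries. Of 44 DNA replication and G1-S genes 0 rose and 0 fell, with 0 at an unadjusted p under 0.05 and 0 called by DESeq2. Their median was -0.13, and MCM7, a helicase subunit, was at 1161, 786 and 619 CPM against 994, 1058 and 818 CPM (-0.16 ± 0.21, adjusted p = 0.907). Of 38 mitosis genes 0 were called, again with 0 at an unadjusted p under 0.05 and 0 by DESeq2. When almonertinib library 1 was left out 1 of the 38 rose and 3 fell, where 3.38% and 3.91% of all genes did, and with the length and GC trend removed 0 were called. Their transcripts are AT-rich, with a median GC content of 43.1%, and the list's median was -0.75 in almonertinib library 1 and 0.22 and 0.11 in libraries 2 and 3. CDC20, which activates the anaphase-promoting complex, was at 669, 429 and 310.1 CPM against 574, 607 and 434 CPM (-0.20 ± 0.23, adjusted p = 0.89). With both almonertinib library 1 and control 3 left out, CDC20 and MCM7 were called, at -0.68 and -0.55 (adjusted p = 0.00699 and 0.0132), in a fit that called 3955 genes. Among 33 ribosome biogenesis genes 0 were called, though 6 had an unadjusted p under 0.05, all lower, and the median was -0.24. With the length and GC trend removed 6 of the 33 fell (3.35% of all genes), and without almonertinib library 1, 8 fell and 1 rose (3.91% and 3.38%). In the MYC network MXD4, a MYC antagonist, rose by 0.80 ± 0.19 (adjusted p = 0.0404), and ODC1, the polyamine enzyme that MYC induces, changed by -0.85 ± 0.17 (adjusted p = 0.014). MXD4 lost its call in 4 of the 6 fits that left out 1 library (adjusted p up to 0.164) and ODC1 in 3 (up to 0.117). Of 22 p53 targets 0 were called, 3 had an unadjusted p under 0.05 (1 higher, 2 lower) and DESeq2 called 0. Of the 22, 1 rose and 4 fell without almonertinib library 1 (3.38% and 3.91% of all genes). With the trend removed 1 rose and 1 fell (4.14% and 3.35%).

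Lung lineage genes were mixed, with 3 of 11 risen and 1 fallen, beside 1.35% and 0.599% of all tested genes. The counts were also 3 and 1 without almonertinib library 1 and with the length and GC trend removed. The list holds 26 genes, and the 11 that passed the low-count filter had a median of -0.09, with 5 positive values. NAPSA, an aspartic protease of alveolar type II cells that processes surfactant proteins, was at 5.10, 2.27 and 4.83 CPM against 0.648, 0.514 and 0.391 CPM, a log2 fold change of 2.94 ± 0.34 (adjusted p = 1.67e-04). NKX2-1, the transcription factor of the lung lineage, was at 76.0, 68.8 and 67.3 CPM against 34.0, 38.4 and 39.0 CPM (0.93 ± 0.14, adjusted p = 0.00143), with no overlap between the groups. Both calls held in each of the 6 fits, and that of NKX2-1 was lost in 1 of 18 fits with other settings or libraries. MUC1, an epithelial mucin, rose by 0.88 ± 0.22 (adjusted p = 0.0495) with 13.5, 8.88 and 9.44 CPM against 5.64, 5.54 and 6.06 CPM, and lost the call in 5 of the 6. The gene that fell is ETV5, described above. In the epithelial junction list TJP3, a tight-junction scaffold, was the 1 called member of 25, at 38.4, 23.6 and 25.6 CPM against 9.44, 9.36 and 10.5 CPM (1.58 ± 0.24, adjusted p = 0.00145). With the trend removed 1 of the 25 rose and 1 fell. KRT81, a hair keratin, changed by -1.08 ± 0.18 (adjusted p = 0.00366) and KRT15, a basal-cell keratin, by -0.73 ± 0.18 (adjusted p = 0.0496). TGFBI, a TGF-beta-induced matrix protein, rose to 2075, 2102 and 1563 CPM from 1016, 1150.4 and 1193 CPM (0.77 ± 0.17, adjusted p = 0.0235). KRT15 lost its call in 4 of the 6 fits and TGFBI in 3 (adjusted p up to 0.24 and 0.155).

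Further calls lay in small groups. Of 23 YAP-TEAD targets 2 fell and 0 rose, where 0.599% of all tested genes fell. They are the matricellular proteins CCN1 and CCN2. CCN2 was at 2.10, 5.20 and 2.73 CPM against 8.28, 10.6 and 9.63 CPM (-1.48 ± 0.29, adjusted p = 0.0132) and CCN1 at 138, 142 and 123 CPM against 227, 261 and 227 CPM (-0.82 ± 0.17, adjusted p = 0.0177). CCN2 lost the call without almonertinib library 3 or control 2 (adjusted p up to 0.0786), and CCN1 without either of these or control 1 (up to 0.117). Of the 23, 4 fell without almonertinib library 1 (3.91% of all genes), and with the length and GC trend removed 9 fell (3.35%). Among 30 glycolysis and hypoxia-responsive genes 2 fell and 0 rose, where 0.599% of all tested genes fell. SLC2A1, the main glucose transporter of tumour cells, was at 262, 226 and 208 CPM against 367, 399 and 393 CPM (-0.74 ± 0.15, adjusted p = 0.0162), a call lost in 4 of the 6 fits (adjusted p up to 0.0973). ANGPTL4, an inhibitor of lipoprotein lipase, was at 14.4, 3.20 and 10.6 CPM against 29.8, 33.1 and 28.0 CPM (-1.70 ± 0.42, adjusted p = 0.0476), the almonertinib libraries differing from each other by more than the controls did. The call of ANGPTL4 was lost in 5 of the 6 fits and held without almonertinib library 1 (-2.13, adjusted p = 0.00561). Without that library 8 of the 30 fell (3.91% of all genes), and with the trend removed 6 (3.35%).

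Of 29 NF-kB targets and cytokines 2 rose and 1 fell, beside 1.35% and 0.599% of all tested genes. With library 1 left out 3 rose and 3 fell (3.38% and 3.91% of all genes). With the trend removed 5 rose and 2 fell (4.14% and 3.35%). IL24, a cytokine of the IL-10 family, was at 7.40, 6.35 and 7.05 CPM against 22.3, 20.4 and 22.4 CPM (-1.65 ± 0.18, adjusted p = 8.12e-05). The chemokine CCL5 was at 6.84, 6.88 and 7.43 CPM against 3.52, 3.31 and 2.54 CPM (1.18 ± 0.20, adjusted p = 0.00489). LTB, lymphotoxin beta, rose by 1.27 ± 0.26 (adjusted p = 0.0147). KLK6, a serine protease, was at 6.29, 5.55 and 4.40 CPM against 15.7, 15.9 and 12.1 CPM (-1.43 ± 0.20, adjusted p = 0.00105), and PLAU, the urokinase, at 389, 353 and 283 CPM against 564, 586 and 569 CPM (-0.75 ± 0.16, adjusted p = 0.0179). AKR1B10, an aldo-keto reductase, was the 1 called gene of 21 NRF2 targets (1.11 ± 0.21, adjusted p = 0.00986), and in the fits without almonertinib library 1 and with the trend removed 1 rose and 1 fell. LTB lost its call in 3 of the 6 fits, PLAU in 4 and AKR1B10 in 2. ARNT2, a partner of bHLH-PAS factors, changed by -1.38 ± 0.34 (adjusted p = 0.0495), a call lost in 5 of the 6 fits.

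Other lists had 0 calls with all libraries, and some of them gained calls without almonertinib library 1 or with the trend removed. Of 14 tubulin genes, the targets of paclitaxel, 0 were called with all libraries, 4 had an unadjusted p under 0.05, all lower, and DESeq2 called 0. When almonertinib library 1 was left out 8 of the 14 fell (3.91% of all genes), and with the length and GC trend removed 7 fell (3.35%). TUBA1B was at 5471, 3589.7 and 2924 CPM against 5609.9, 5924 and 4483 CPM (-0.42 ± 0.22, adjusted p = 0.548), and without library 1 at -0.71 (adjusted p = 0.0209). For the 28 genes of ATF4 and amino acid stress 0 were called, 10 had an unadjusted p under 0.05 (3 higher, 7 lower) and DESeq2 called 1, which was lower. Without almonertinib library 1, 6 fell (3.91% of all genes), and with the trend removed 5 fell and 2 rose (3.35% and 4.14%). The 13 mitochondrially encoded genes had a median of -0.25 with 0 called, 1 at an unadjusted p under 0.05 and 1 called by DESeq2, both lower. Of the 13, 1 fell without almonertinib library 1. MT-CO2 was at 3578, 1956 and 1672 CPM against 3097, 3063 and 2423 CPM (-0.25 ± 0.31, adjusted p = 0.897), with library 1 above all 3 controls and libraries 2 and 3 below them. In the lists of DNA repair and checkpoint genes, cytosolic ribosomal proteins and tRNA synthetases (24, 66 and 18 tested) 0 were called by edgeR, 0 had an unadjusted p under 0.05 and DESeq2 called 0. One tRNA synthetase fell without almonertinib library 1, and 1 with the trend removed.

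The response was then set beside that of PC9 cells in one fit of all 24 libraries and 13380 genes. In that fit 536 genes were called in H1975 (4.01%), 368 higher (2.75%) and 168 lower (1.26%), and 5834 in PC9 (43.6%). The PC9 dose was 2 nM, so line and dose cannot be told apart. Of the 536 genes 329 were called in the same direction in PC9, 223 higher and 106 lower, which is 61.4% of the H1975 genes and 5.64% of the PC9 genes. Another 169 were not called in PC9, and 38 were called in the opposite direction. The difference between the responses passed the test in 2216 genes (16.6%), 740 with a higher value in PC9 (5.53%) and 1476 with a lower one, among them 185 of the 536.

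Of 46 interferon-stimulated genes in that fit, 41 rose in H1975 and 36 in PC9, beside 2.75% and 21.8% of all genes, with medians of 1.39 and 1.46. The difference passed the test in 7 that were higher in PC9 and 12 that were lower, beside 740 and 1476 of all 13380 genes. IFITM2 was called in PC9 alone, at 3.04 ± 0.24 against -0.18 ± 0.20 in H1975 (adjusted p of the difference 6.01e-08). In the other direction, OAS2 and IFI27 rose more in H1975, by 2.88 ± 0.24 against 1.41 ± 0.22 and by 3.02 ± 0.25 against 1.63 ± 0.24 (adjusted p of the difference 0.00189 and 0.00486). The differences for MX1 and MX2 were 0.08 ± 0.30 and -0.12 ± 0.31, neither of which passed the test (adjusted p = 0.907 and 0.853), and both changed sign in some fits. For IFI6 the responses were 2.62 ± 0.20 and 2.40 ± 0.19, and their difference did not pass the test (-0.22 ± 0.26, adjusted p = 0.614). OASL went opposite ways, 1.14 ± 0.17 in H1975 and -2.03 ± 0.17 in PC9 (difference -3.17 ± 0.24, adjusted p = 9.51e-10). EGFR-pathway genes fell less in H1975 for AREG (-1.49 ± 0.17 against -3.99 ± 0.19), FOSL1 (-1.15 ± 0.20 against -2.46 ± 0.21) and PHLDA1 (-0.59 ± 0.11 against -2.76 ± 0.12), with adjusted p of the difference 1.32e-07, 0.00197 and 3.76e-10. MYC and CCND1 fell in both, and their responses did not differ by a called amount (-0.30 ± 0.19 and 0.07 ± 0.16, adjusted p = 0.281 and 0.821). The 44 DNA replication and G1-S genes had a median of -0.12 in H1975 and -0.75 in PC9. There 0 fell in H1975 and 32 in PC9, where 1.26% and 21.8% of all genes fell. The difference passed the test in 23, each lower in PC9, beside 1476 of all 13380 genes. ETV4 and DUSP4 had the lower value in H1975, -1.12 ± 0.20 against -0.47 ± 0.19 and -0.92 ± 0.11 against -0.60 ± 0.11. Their differences did not pass the test (adjusted p = 0.105 and 0.174) but did without almonertinib library 1 (1.06 and 0.46, adjusted p = 8.84e-04 and 0.0288).

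The 38 genes called in opposite directions divide into 22 that rose in H1975 and fell in PC9 and 16 that did the reverse. The difference passed the test for each of them, but their choice by opposite calls in the same fit made that nearly certain. Besides OASL they include CCL5 (1.19 ± 0.26 and -1.82 ± 0.22), TGFBI (0.79 ± 0.14 and -0.58 ± 0.14) and APOL1, an interferon-inducible apolipoprotein (1.03 and -0.45). NAPSA was called in H1975 alone, at 2.96 ± 0.35 against 0.22 ± 0.36, and its difference passed the test (-2.74 ± 0.51, adjusted p = 4.84e-04). CCN2 also fell in H1975 and not in PC9 (-1.48 ± 0.24 against -0.10 ± 0.25; difference 1.38 ± 0.34, adjusted p = 0.00703). For OASL, CCL5, TGFBI, NAPSA and CCN2 the difference between the lines was also called without almonertinib library 1.

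**Figure D5:**
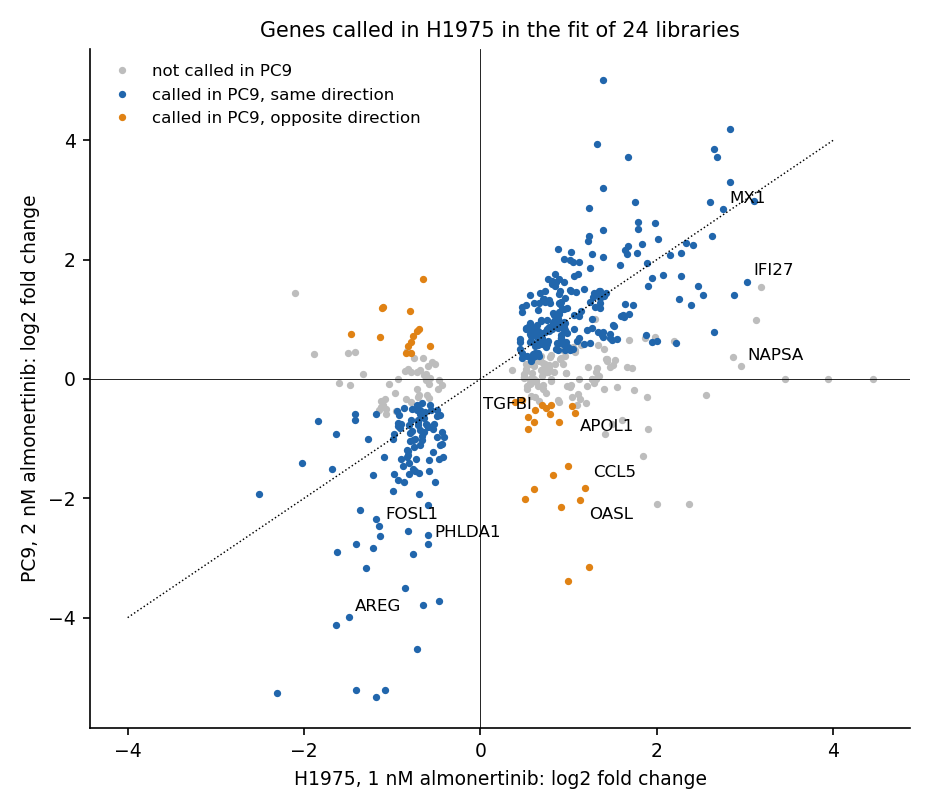
Log2 fold change with almonertinib in H1975 (x axis, 1 nM) and PC9 (y axis, 2 nM) in the fit of 24 libraries. Points are 521 of the 536 genes called in H1975, those that also passed the low-count filter of the H1975 fit, coloured by their call in PC9, and the dotted line marks equal values. Most lie in the quadrants of the same direction, and OASL, CCL5, TGFBI and APOL1 are among the genes of the lower right, which rose in H1975 and fell in PC9.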

How the data were processed

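RNA was extracted with TRIzol and made into libraries with a SMART RNA-seq kit, per the labels' protocols. The authors deposited raw read counts per gene; reads had been aligned with HISAT2 2.2.1 to GRCh38 and counted with HTSeq, per the submitters' processing notes. The annotation, strand setting and HTSeq version are not given in the sources used here. Gene positions, lengths and GC content come from GENCODE v29, and promoters from RefSeq.

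The 12 H1975 libraries were filtered with filterByExpr (minimum count 10), scaled by TMM and tested with edgeR 4.0.16 (R 4.3.3), quasi-likelihood, with Benjamini-Hochberg adjustment. Responses of the lines were compared by an interaction over 24 libraries. Alternatives were DESeq2 1.42.0, other scaling and filters, other sets of libraries, a replicate block, and offsets that take out each library's trend with GC content and length. Leaving out almonertinib library 1 together with control 3, or together with the trend removal, was chosen after seeing the data. The test was also run on simulated counts with known fold changes. These had the same spread for every gene, no GC trend and no outlying library, so that run does not cover such features of the data.

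Members and lists were chosen with earlier results of these data known. Named by rule were the 8 largest called rises and falls with at least 5 CPM and no overlap, 5 of each without almonertinib library 1, up to 2 called members per list and direction, the 5 largest line differences each way, and a fixed set of EGFR-pathway genes. Other genes were named after their values were seen, and a few items are not reported here.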

Additional observations from a re-analysis of the deposited data

Results flagged for a closer look

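The differences below between the PC9 and H1975 responses to almonertinib passed the test in the fit of all 24 libraries (edgeR interaction, adjusted p under 0.05), as did 16.6% of all genes. They are given as PC9 minus H1975 on the log2 scale, and 10 were chosen for their size, so their number describes nothing. The lines were given different doses, so line and dose cannot be told apart.

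Responses of opposite direction, each called, gave differences of -3.17 for OASL, -3.01 for CCL5 and -1.37 for TGFBI. Genes that rose in both lines but less in PC9 were OAS2 (-1.47) and IFI27 (-1.39). NAPSA differed by -2.74, having risen in H1975 with no call in PC9. ERBB3 rose in both lines in this fit, more so in PC9 (0.64).

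Several EGFR-pathway genes had a more negative log2 fold change in PC9 than in H1975, that is, they fell further in PC9. The differences were -2.50 for AREG, -2.20 for EREG, -2.17 for PHLDA1, -1.31 for FOSL1, -0.80 for DUSP6 and -0.75 for SPRY4. The SPRY4 difference was -0.49 without almonertinib library 1 and no longer passed (adjusted p = 0.145). Neither DUSP6 nor SPRY4 passed with the length and GC trend removed (adjusted p = 0.194 and 0.0689). ETV4 and DUSP4, which fell further in H1975, did not pass the test in the fit of all 24 libraries. With the trend removed they passed (0.73 and 0.60, adjusted p = 2.1e-04 and 0.0016). SH2D2A fell in both lines and differed by -1.27. CCN2 and KLK6 had the more negative log2 fold change in H1975, with differences of 1.38 and 0.74.

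Further differences were those of G0S2 (-6.84), SPRR1B (-6.69), GMPR (3.21) and IFITM2 (3.22). G0S2 had 4 reads in the 3 treated PC9 libraries against 644 in the controls, and SPRR1B 9 against 1482. Several others rest on few reads in 1 line. In H1975, KRT6A (-8.77) had 4 reads with almonertinib and 1 without, KRT6B (-5.83) 7 and 4, KRT4 (5.36) 1 and 2, LGALS9B (4.17) 0 and 5, and TMEM156 (4.42) 1 and 23. LGALS9B also has near-identical copies that can share reads. TDRD9 (-5.44) had 0 reads in the treated PC9 libraries and 12 in the controls. KRT6A, KRT6B, KRT4, LGALS9B and TMEM156 passed the low-count filter of this fit through their PC9 reads, and TDRD9 through its H1975 reads. For these genes the test therefore says little about the response of the line with few reads. The sizes of these fitted values depend on the prior count and are not bounds.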

How the results depend on the processing

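The 241 genes called in H1975 (167 higher, 74 lower) became 925 (511 and 414) with the length and GC trend removed, 1484 (738 and 746) when almonertinib library 1 was also left out, and 870 (475 and 395) with that removal and a replicate block. The fit of only the 6 libraries called 46 (41 and 5), of only 5 without almonertinib library 1 567 (342 and 225), of all 24 libraries 536 (368 and 168), and without almonertinib library 1 and control 3 3955 (2147 and 1808). DESeq2 called 137 lower. Leaving out 1 library gave 99 to 906 calls, 77 to 420 higher and 17 to 486 lower. The replicate block called 47 lower. The deviations of same-numbered libraries correlated at 0.360, -0.428 and 0.545, and 3 such values cannot show whether the numbers pair them. The 2216 line differences became 3750 (1849 higher) with the trend removed, 3816 (1893 higher) with the block too, 871 (219 and 652) from only 12 libraries, and 1594 to 2878 (512 to 1310 higher, 1062 to 1686 lower) without 1 library. Leaving out 1 library gave log2 values of -0.54 to 0.027 for CDC20, -0.45 to 0.025 for MCM7 and -0.010 to 0.28 for TDRD9. Line differences that did not pass the test also changed sign. With the trend removed MX2 was 0.12, without and with the block, and EGFR 0.029 and 0.031. Leaving out 1 library gave differences of -0.42 to 0.088 for MX2, -0.13 to 0.31 for MX1, -0.44 to -0.083 for EGFR, -0.41 to 0.65 for ANGPTL4 and -0.041 to 0.10 for BCL2L11. Other scaling and filters kept the count of calls between 167 and 256. The cause was not tested. Genes under the count minimum were not tested in the main fit of 12345 genes. Some of them were tested in the fit of all 24 libraries (13380 genes) and in that without almonertinib library 1 (12441 genes). The fit without that filter called 256.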

Other observations

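Groups outside the lists used above were put together after their values had been seen, so their counts describe the data and support nothing. With all libraries each is read beside 1.35% of tested genes that rose and 0.599% that fell. Counts without almonertinib library 1 are read beside 3.38% and 3.91%, and those with the length and GC trend removed beside 4.14% and 3.35%. BMP signalling turns on the ID genes, inhibitors of basic helix-loop-helix factors. Of 16 BMP and ID genes tested 5 rose and 0 fell. ID2 was at 19.1, 19.8 and 22.0 CPM with almonertinib and 5.78, 6.68 and 6.99 CPM in the controls (1.65 ± 0.17, edgeR adjusted p = 5.60e-05). ATOH8, a transcription factor downstream of BMP receptors, was at 7.54, 4.97 and 5.0 CPM against 1.11, 1.08 and 0.684 CPM (2.59 ± 0.29, adjusted p = 9.89e-05). ID4 rose by 1.12 ± 0.16 (adjusted p = 0.00105), and ID1 and ID3 by 0.84 ± 0.18 and 0.80 ± 0.19 (adjusted p = 0.0192 and 0.0425), calls lost in 3 and 4 of the 6 fits that left out 1 library. Of the 16, 5 rose without almonertinib library 1, and with the length and GC trend removed 7.

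Of 17 circadian clock output genes 5 rose and 1 fell. TEF and DBP, related clock-controlled transcription factors, were at 39.7, 27.4 and 28.5 and at 29.3, 15.6 and 19.4 CPM with almonertinib. Their controls were at 12.3, 10.9 and 12.3 and at 7.96, 7.02 and 7.62 CPM, so neither gene overlapped between the groups (1.43 ± 0.17 and 1.5 ± 0.22, adjusted p = 3.0e-04 and 0.00145). The repressors PER2 and PER3 rose by 1.18 ± 0.25 and 1.54 ± 0.26 (adjusted p = 0.0206 and 0.00441), and PER2 lost its call in 3 of the 6 fits. NPAS2, a partner of the clock activator, changed by -0.84 ± 0.14 (adjusted p = 0.00325). Of the 17, 6 rose and 1 fell without almonertinib library 1, and with the trend removed 6 rose and 2 fell. Time of harvest is not given in the labels used here.

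Of 12 complement genes 5 rose and 0 fell, C3, the central component, from 8.51, 8.91 and 9.77 to 29.3, 17.9 and 15.6 CPM (1.20 ± 0.22, adjusted p = 0.00877), a call lost without control 1 or 2. Of 9 guanylate-binding and APOL genes 5 rose (8 without almonertinib library 1 and 9 with the trend removed), GBP2 by 2.05 ± 0.31 (adjusted p = 0.00145). Of 13 genes of the NKX2-1 region and alveolar products 7 passed the low-count filter. Of these 6 rose, among them LAMP3 by 1.74 ± 0.31 and SCNN1A, a sodium channel subunit, by 0.94 ± 0.19 (adjusted p = 0.00718 and 0.0144). The remaining gene, ABCA3, was at -0.18 ± 0.17 and was not called (adjusted p = 0.85). SFTA3, which lies beside NKX2-1, rose by 1.30 ± 0.26 (adjusted p = 0.0139). LAMP3 lost its call in 1 of the 6 fits, SCNN1A in 2 and SFTA3 in 4. The placental alkaline phosphatases ALPP and ALPG had 144 and 174 reads with almonertinib and 23 and 33 without (adjusted p = 0.00111 and 3.84e-04), but the genes are near-identical and can share reads.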
